A study of Mus musculus with 2 samples.

Results

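Of the 6 genes described here, 5 encode the cytochrome P450 enzymes of adrenal steroid synthesis, Cyp11a1, Cyp11b1, Cyp11b2, Cyp17a1 and Cyp21a1, and the remaining one, Por, encodes the reductase that passes electrons to the microsomal P450 enzymes. The members were taken by symbol, which found 6 genes of 55536 in the gene tables and 22 of their transcripts among 141864 in the transcript tables. Adrenal glands came from female mice of strain B6CASTF1/J, an F1 cross of C57BL/6J and CAST/EiJ, aged 18 to 20 months and taken as 2 animals. No treatment, genotype contrast or other age is named in the labels. Total RNA (300 ng a library) was depleted of ribosomal RNA and made into strand-keeping libraries with ERCC spike-ins, which are synthetic RNAs of known sequence. Both libraries belong to 1 group, 1 per animal, called animal 1 and animal 2 after the replicate numbers, so no comparison between groups was possible and no p-value is given. In the labels both samples carry 1 donor identifier, and one description field of animal 2 repeats the name of the female of animal 1, while the replicate numbers, tissue samples and other name fields differ. The libraries were treated as 2 animals on these differences, which the shared donor identifier leaves unsettled. If they came from 1 female, an SD with n = 2 would not be a spread between animals. Separate litters, cages or days are not stated, so the spread between the libraries may be partly technical. Library totals were 35769717 (animal 1) and 35135703 (animal 2) expected counts. Levels come from a gene and a transcript table made from alignments to the transcriptome, called the first tables, and from a second transcript table made directly from the read files, which serves as a separate quantification.

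Steroid hormones are made in the adrenal cortex from cholesterol by a short chain of enzymes, most of which are P450s, heme proteins that insert oxygen into the steroid. Cyp11a1 cleaves the cholesterol side chain in the mitochondrion and gives pregnenolone. After the step of 3-beta-hydroxysteroid dehydrogenase (Hsd3b1), Cyp21a1 hydroxylates progesterone in the endoplasmic reticulum, and Cyp11b1 completes corticosterone, again in the mitochondrion. Cyp11b2, or aldosterone synthase, makes aldosterone in the outermost zone of the cortex. Cyp17a1 opens the route to cortisol and androgens in the human adrenal. The mouse adrenal is known for corticosterone as its main glucocorticoid and for little Cyp17a1 after birth. The mitochondrial P450s take electrons from ferredoxin (Fdx1) and ferredoxin reductase (Fdxr), and the microsomal ones from Por.

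All P450s bind heme through a cysteine in a short conserved stretch near the end of the protein, and the DNA that encodes it shows how close the members are to each other. The following stretches are read 5′ to 3′ on the coding strand from the leading GENCODE M21 transcripts (assembly GRCm38, also called mm10), with the cysteine codon in capitals. They lie at chr9:58026211-58026240 for Cyp11a1 (plus strand), chr15:74836275-74836304 for Cyp11b1, chr15:74851461-74851490 for Cyp11b2, chr19:46667520-46667549 for Cyp17a1, chr17:34801978-34802007 for Cyp21a1 and chr17:34720020-34720049 for the pseudogene Cyp21a2-ps (minus strand for the last 5).
Cyp11a1: tttggctggggtgttcggcagTGTctgggc
Cyp11b1: tttggctttggggtgcgccagTGCctgggg
Cyp11b2: tttggctttggggtgcgccagTGCctgggg
Cyp17a1: ttcggagctggtccccgatcgTGCattgga
Cyp21a1: tttggctgtggggcacgcgtgTGCctggga
Cyp21a2-ps: tttggctgtggggcacgcgtgTGCctggga
Cyp11b1 and Cyp11b2 differed at 0 of these 30 bases, and so did Cyp21a1 and its pseudogene, so a read from this stretch alone cannot be assigned within either pair.

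Elsewhere the members of each pair can be told apart, which is what their separate values rest on. Over 1484 aligned coding bases, Cyp11b1 and Cyp11b2 were 88.3% identical. The 60 bases in which they differed most carry 24 differences, in capitals here, and lie at chr15:74839246-74839305 in Cyp11b1 and chr15:74853815-74853874 in Cyp11b2, both on the minus strand.
Cyp11b1: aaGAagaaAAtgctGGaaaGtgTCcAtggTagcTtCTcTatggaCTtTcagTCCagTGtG
Cyp11b2: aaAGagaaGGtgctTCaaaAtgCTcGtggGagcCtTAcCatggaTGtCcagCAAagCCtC
Cyp21a1 and Cyp21a2-ps were 97.5% identical over 1382 aligned bases of annotated exons, with 34 differences. The annotated exons of the pseudogene lack the 90 bases of exon 2 of Cyp21a1, so their spliced sequences part after exon 1. In the following lines the capitals mark the start of the next annotated exon, and the spliced stretches span chr17:34804104-34804227 in Cyp21a1 and chr17:34721725-34722080 in the pseudogene, on the minus strand.
Cyp21a1: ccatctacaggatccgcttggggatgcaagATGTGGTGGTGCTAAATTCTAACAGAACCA
Cyp21a2-ps: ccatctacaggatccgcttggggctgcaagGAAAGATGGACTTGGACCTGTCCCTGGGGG
The end of exon 1 shown in lower case differs at 1 base between them. The second annotated exon of the pseudogene begins like exon 3 of Cyp21a1, with 0 differences over its first 30 bases.

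Marker genes placed both libraries in the adrenal gland, with other tissue present. All 7 cortex markers outside the P450s and all 7 medulla markers had at least 1 TPM (a level relative to all transcripts of the library, corrected for transcript length) in both animals. The summed TPM of the cortex markers was 8265 in animal 1 and 13138 in animal 2, that of the medulla markers 1813 and 1531, and that of the brown and white fat markers 3212 and 2034. All 8 striated muscle markers were higher in animal 1, with a sum of 168.5 TPM there and 0.35 in animal 2. Both markers of the X-zone, an inner cortical zone of the mouse, were higher in animal 2, with a sum of 118 TPM in animal 1 and 1047 in animal 2. The part of these tissue differences in the values that follow was not tested. Of the 10 markers of gonad-type cells, 1 reached 1 TPM in both animals, and the list summed to 6.91 and 3.95 TPM. The 6 liver markers summed to 95.6 and 100.4 TPM, most of it Cyp2e1. Kidney markers summed to 1.18 and 1.33 TPM, and Slc12a1 and Nphs1 were at 0 in both. In whole-gland RNA, fewer cells of a type and less RNA per cell cannot be told apart.

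Cyp11a1, the first P450 of the chain, stood at 2335 TPM in animal 1 and 2034 in animal 2, with a mean of 2184 ± 212 (SD, n = 2). It was assigned 183275 expected counts (estimated reads or fragments) in animal 1 and 146409 in animal 2, the higher value in animal 1 on both scales. Among 22028 protein-coding genes it ranked 16th in animal 1 and 18th in animal 2 by TPM. The gene (ENSMUSG00000032323.13, plus strand of chromosome 9, 58006411 to 58027023) has 9 exons in its leading transcript, which encodes 526 codons.

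Cyp21a1, the only microsomal P450 of the corticosterone chain, was the highest member by TPM, at 3568 TPM in animal 1 and 4886 in animal 2 (mean 4227 ± 932, SD, n = 2), on 267149 and 332833 expected counts. It ranked 11th among protein-coding genes in both animals. It lies on the minus strand of chromosome 17, from 34801348 to 34804561 (ENSMUSG00000024365.9). Among the 5 well-counted members (mean count 50 or more), it alone had the higher TPM in animal 2.

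Cyp11b1, the last enzyme of corticosterone synthesis, stood at 2622 TPM in animal 1 and 2285 in animal 2 (mean 2454 ± 238, SD, n = 2), on 312504 and 248691 expected counts, and ranked 15th in both animals. It lies on the minus strand of chromosome 15, from 74834125 to 74841643 (ENSMUSG00000075604.5). Cyp11b2, its neighbour on the same strand from 74851010 to 74856318 (ENSMUSG00000022589.7), stood at 200.4 TPM in animal 1 and 165.6 in animal 2 (mean 183 ± 24.6, SD, n = 2), on 11888 and 8971 expected counts. Both were higher in animal 1, and both Cyp11b2 values lay below all values of Cyp11b1. Cyp11b2 ranked 226th in animal 1 and 271st in animal 2, so the transcript of a narrow outer zone was still among the more abundant messages of the whole gland. The 6 markers of that zone, the zona glomerulosa, with Cyp11b2 itself among them, summed to 425 TPM in animal 1 and 368 in animal 2.

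Cyp17a1 was near the limit of detection in animal 1 and low in animal 2, and for this member the data go against its grouping with the expressed cortical enzymes. It was listed at 0.10 TPM in animal 1 and 0.64 in animal 2. These rest on 4 expected counts in animal 1 (95% Poisson interval 1.09 to 10.2) and 39 in animal 2 (27.7 to 53.3), intervals that cover counting error only. Its ranks were 14876 and 12480 among the protein-coding genes. The gene lies on the minus strand of chromosome 19, from 46667165 to 46673172 (ENSMUSG00000003555.8), and 0 of its words of 31 or 100 bases occur in another annotated gene, so no read of that length had to be divided with a copy.

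Por, the electron donor of Cyp21a1 and Cyp17a1, stood at 105 TPM in animal 1 and 94.9 in animal 2, on 9450 and 7873 expected counts, and ranked 468th and 566th. It lies on the plus strand of chromosome 5, from 135670033 to 135735326 (ENSMUSG00000005514.14), with 16 exons and 678 codons in its leading transcript.

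**Figure D1:**
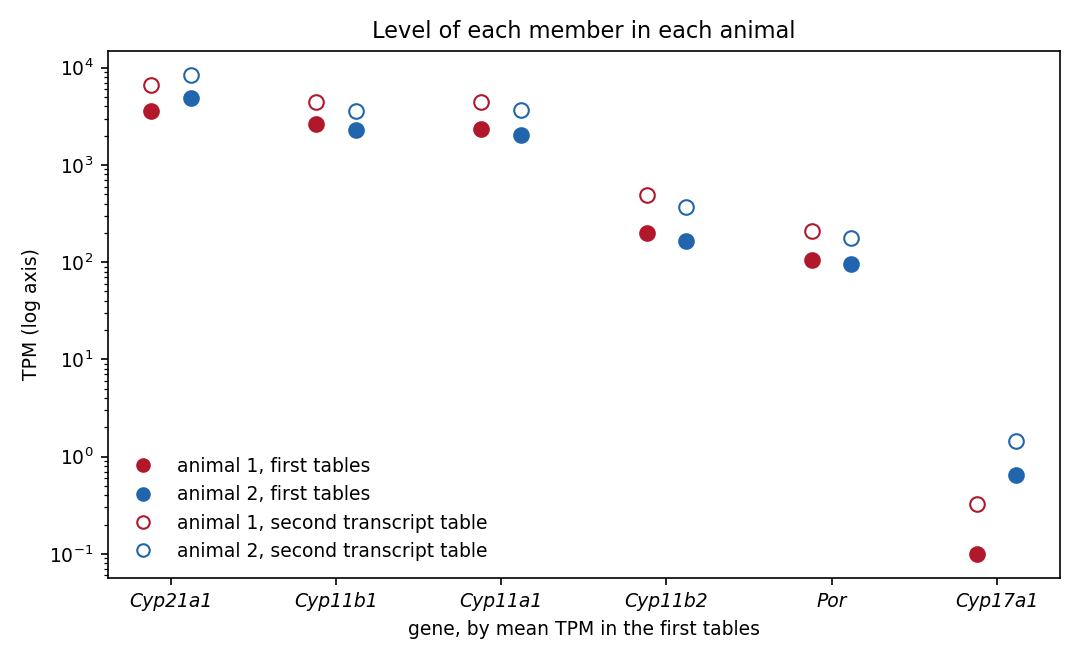
TPM of the 6 members on a log axis, with animal 1 in red left of animal 2 in blue, filled points for the first tables and open points for the second transcript table, 1 library per point. Cyp17a1, at 0.10 TPM in animal 1 and 0.64 in animal 2, stands apart from the other members, the lowest of which is Por at 94.9 TPM.

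By TPM the order of the members was the same in both animals: Cyp21a1, Cyp11b1, Cyp11a1, Cyp11b2, Por and Cyp17a1. Neighbours were taken to differ where both values of the higher gene lay above both values of the lower one. By this rule 4 of the 5 neighbouring pairs were apart, and Cyp11b1 and Cyp11a1 were not, since the lowest Cyp11b1 value of 2285 TPM lay below the highest Cyp11a1 value of 2335 TPM. Cyp21a1 exceeded Cyp11b1 1.36-fold in animal 1 and 2.14-fold in animal 2, and Cyp11b2 exceeded Por 1.91-fold and 1.74-fold. In the second transcript table Cyp11a1 stood above Cyp11b1 in both animals, at 4480 and 3646 TPM against 4417 and 3595 TPM for Cyp11b1, so the order of these 2 genes depends on the quantification.

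The protein-coding gene nearest to each member by level was found by distance on log2(TPM + 1) over the 2 libraries, among 22027 genes. This describes a level only. Cyp11a1 and Cyp11b1 were nearest to each other, at a distance of 0.24. Cyp21a1 was nearest to Hsd3b1, the enzyme of the preceding step, at 0.13, where Hsd3b1 stood at 3864 TPM in animal 1 and 5118 in animal 2. Por stood nearest to Cd151, a membrane tetraspanin, at 0.01, Cyp11b2 to Atp5e, an ATP synthase subunit, at 0.07, and Cyp17a1 to Gm49391 at 0.07.

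The 5 steroidogenic P450s made up nearly all P450 messenger RNA of the gland. Their TPM summed to 8725 in animal 1 and 9372 in animal 2 (mean 9048 ± 457, SD, n = 2), or 95.5% and 96.1% of the TPM of 100 protein-coding Cyp genes. Cyp21a1 alone gave 40.9% of the summed TPM of the members in animal 1 and 52.1% in animal 2. Cyp11b1 gave 30.1% and 24.4%, Cyp11a1 26.8% and 21.7%, and Cyp11b2 2.30% and 1.77%. Of the 100 genes, 23 in animal 1 and 25 in animal 2 reached 1 TPM. The highest outside the members was Cyp2f2, a P450 of foreign-compound metabolism, at 205 TPM in animal 1 and 147 in animal 2, which was above Cyp11b2 in animal 1 and below it in animal 2. Cyp2e1, another such enzyme, had 81.8 and 95.6 TPM, and Cyp51, of cholesterol synthesis, 17.3 and 24.1 TPM. Cyp17a1 ranked 46th of the 100 in animal 1 and 26th in animal 2.

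Ratios of TPM within a library need no scaling between the libraries. Cyp11b1 over Cyp11b2 was 13.1-fold in animal 1 and 13.8-fold in animal 2, a log2 ratio of 3.75 ± 0.05 (SD, n = 2). Cyp11a1 over Cyp11b1 was 0.89-fold in both animals, with a log2 ratio of -0.17 in each. The proportions among the mitochondrial P450s were thus nearly the same in both glands, and those between them and the microsomal Cyp21a1 were further apart.

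Cyp21a1 over Cyp11b1 had a log2 ratio of 0.44 in animal 1 and 1.10 in animal 2. Without correction for transcript length it was -0.23 in animal 1 and 0.42 in animal 2, so Cyp21a1 was not the higher of the 2 by counts in animal 1. The summed mitochondrial P450s over the summed microsomal ones had a log2 ratio of 0.53 in animal 1 and -0.12 in animal 2, so by TPM the mitochondrial enzymes were the higher group in animal 1 and the lower one in animal 2. Without correction for transcript length the log2 ratio was 0.93 in animal 1 and 0.28 in animal 2, with the mitochondrial group higher in both. Cyp21a1 over Cyp17a1 was 15.12 in animal 1 and 12.90 in animal 2 on the log2 scale, which rests on the few Cyp17a1 counts.

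Summed by compartment, the P450s stood above the messages of their electron donors, although Cyp11b2 by itself lay below Fdx1 and Fdxr, and Cyp17a1 below Por, in both animals. Mitochondrial P450s (Cyp11a1, Cyp11b1 and Cyp11b2 summed) over Fdxr, the first carrier of their chain, were 12.8-fold in animal 1 and 11.1-fold in animal 2. Over Fdx1, the carrier that reduces the P450 itself, they were 13.6-fold in animal 1 and 4.47-fold in animal 2, where Fdx1 itself stood at 378 TPM in animal 1 and 1004 in animal 2. Microsomal P450s (Cyp21a1 and Cyp17a1 summed) over Por were 34.0-fold in animal 1 and 51.5-fold in animal 2. The log2 ratio to Fdxr had an SD of 0.15 over the animals, that to Fdx1 an SD of 1.14 and that to Por an SD of 0.42 (n = 2 each).

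**Figure D2:**
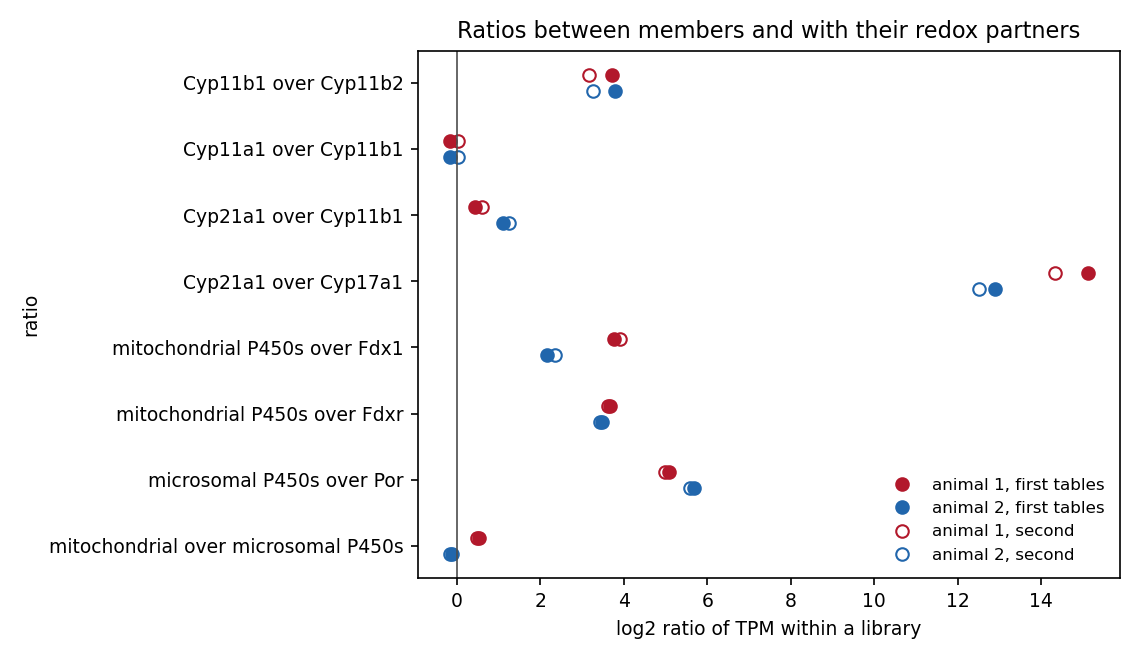
Log2 ratios of TPM within a library between members, and between summed P450s and their electron donors, with animal 1 in red above animal 2 in blue, filled points for the first tables and open points for the second transcript table. The animals are furthest apart in Cyp21a1 over Cyp17a1, which rests on few Cyp17a1 counts, and next in the mitochondrial P450s over Fdx1. They are also apart in Cyp21a1 over Cyp11b1, mitochondrial over microsomal P450s and microsomal P450s over Por. Cyp11a1 over Cyp11b1 stays at -0.17 in both animals in the first tables.

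The animals were compared on scaled counts. Expected counts were scaled with TMM, which sets the bulk of genes equal between libraries, and a gene was called apart at a ratio of at least 2-fold, a mean count of at least 50 and deposited TPM intervals that did not overlap. By this rule 0 of the 5 members with enough counts were called, against 3.46% of 13569 genes. At 1.5-fold the count was again 0 of 5, against 9.71% of genes. With 5 members, counts of 0 are near these background shares and say nothing particular about the members. The intervals of TPM of all 5 did not overlap between the animals, as held for 33.1% of genes, but these intervals cover assignment and counting error within a library only.

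The log2 ratio of animal 1 over animal 2 was 0.24 for Cyp11a1, 0.25 for Cyp11b1 and 0.32 for Cyp11b2, or 1.18-fold, 1.19-fold and 1.25-fold higher in animal 1. For Por it was 0.18 and for Cyp21a1 it was -0.40, with Cyp21a1 1.32-fold higher in animal 2. For comparison, the interquartile range of the 13569 genes ran from -0.20 to 0.24, with a median of 0.01. Of the 5, Por lay inside this range. Cyp11a1 stood at the 75.3 percentile of these genes, Cyp11b1 at 75.7, Cyp11b2 at 81.6, Por at 69.6 and Cyp21a1 at 11.4. Scaling by spike-in totals moved the median of all genes to -0.21. Under it Cyp11a1 stood at 0.02, Cyp11b1 at 0.03 and Cyp11b2 at 0.10, Por changed side to -0.04, and Cyp21a1 reached -0.62. A change of scaling shifts all genes alike, so the percentiles of the members are the same under both. With TMM 1 of the 7 cortex markers was higher in animal 1, and with spike-in totals 0 of 7, and their part in the Cyp21a1 difference was not tested.

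Cyp17a1 was below the minimum count. Without that minimum it was the 1 member of 6 called, against 3.01% of 26075 genes, with a log2 ratio of -3.22. The unscaled ratio of its counts was 9.75-fold higher in animal 2, with an exact 95% counting interval of 3.52 to 37.6, and both tables put animal 2 above animal 1. Both X-zone markers were also higher in animal 2, Akr1c18 standing at 116 TPM in animal 1 and 1034 in animal 2 and Pik3c2g at 1.52 and 13.2 TPM, and their part in the Cyp17a1 difference was not tested. Gonadal cells are known to express Cyp17a1, and of the 10 gonad-type markers 6 had the higher TPM in animal 1, 3 in animal 2 and 1, Fshr, was at 0 in both. Among those higher in animal 2, Amh had 3 counts in animal 1 and 25 in animal 2. Among those higher in animal 1, Gata4 had 148 counts in animal 1 and 47 in animal 2, and Foxl2 137 and 25. Lhcgr, the luteinising hormone receptor, stood at 0.04 TPM in animal 1 and 0.02 in animal 2. The part of such cells in the Cyp17a1 difference was not tested.

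**Figure D3:**
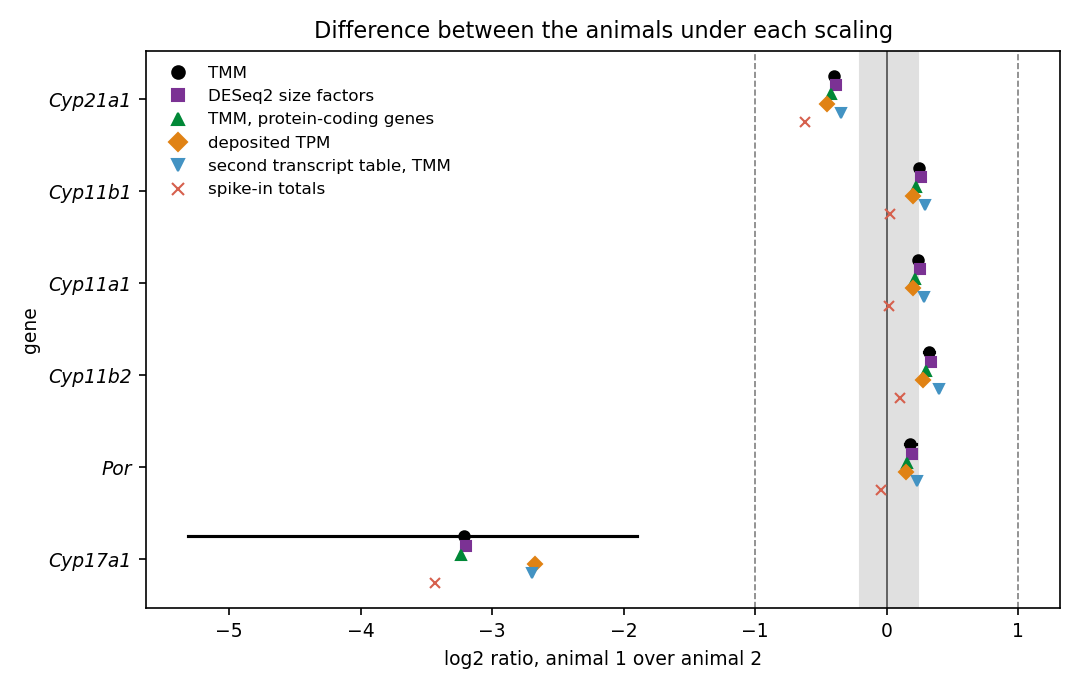
Log2 ratio of animal 1 over animal 2 for each member under 6 scalings (symbols), with the 95% counting interval of the TMM-scaled ratio as a bar, which is narrower than its symbol for all members but Cyp17a1. The grey band is the interquartile range of 13569 genes under TMM and the dashed lines mark 2-fold; only Cyp17a1 lies beyond them, and Por changes side under spike-in totals.

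Among the other genes of the pathway the log2 ratios ran from -1.44 for Fdx1 to 0.39 for Tspo, beside -0.40 to 0.32 for the 5 members. Of 16 listed neighbours (cholesterol transport, 3-beta-hydroxysteroid dehydrogenases, electron carriers, ACTH receptor and transcription factors), 15 were found under these symbols and all 15 had enough counts. Of these 15, 1 was called at 2-fold, Fdx1, against 3.46% of 13569 genes. With 15 genes, a count of 1 is near this share and says nothing particular about the pathway. The median ratio of the list was -0.18 beside 0.01 over all genes, with 6 of 15 higher in animal 1 under TMM and 2 of 15 under spike-in totals. Star, which carries cholesterol to Cyp11a1, had a log2 ratio of -0.90, standing at 2984 TPM in animal 1 and 5374 in animal 2. Nr5a1, the transcription factor that drives steroidogenic P450 genes, had -0.68, with 181 and 303 TPM. Cyp21a1 and Hsd3b1, at -0.40 and -0.36, were on the side of Star and Nr5a1 under TMM. Cyp11a1, Cyp11b1 and Cyp11b2 were on the other side, as were the 6 neighbours higher in animal 1. These were Tspo, Cyb5r3, Mc2r, Nr0b1, Cyb5b and Fdxr.

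The transcript tables resolve each member into its annotated transcripts, whose shares are the deposited percent of the gene's level. In 5 of the 6 members the same transcript led in both animals and both tables. Cyp11b1 and Cyp11b2 have 1 annotated transcript each, so for these genes the lead was fixed in advance. The leading Cyp11a1 transcript gave 99.2% of Cyp11a1 in animal 1 and 97.5% in animal 2, and that of Cyp21a1 gave 97.8% and 97.3%. The leading Por transcript gave 86.9% and 88.4%, and the other Por transcripts, of 9 annotated, shared the rest. In the second transcript table the leading Por transcript gave less, 79.2% in animal 1 and 80.5% in animal 2. For Cyp17a1, the protein-coding transcript that led in animal 2 gave 46.6% in animal 1 and 100% in animal 2, shares that divide 4 and 39 counts.

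Under the same rule, 2 of the 14 member transcripts with enough counts were apart between the animals, beside 7.33% of 25960 transcripts. A Cyp11a1 transcript annotated as retaining introns was assigned 1171 counts in animal 1 and 3807 in animal 2, a log2 ratio of -1.78, or 3.44-fold higher in animal 2. The leading spliced transcript was the higher in animal 1, with 181870 counts there and 142203 in animal 2. In the second transcript table the retained-intron transcript had 1213 and 4061 counts. Its share of Cyp11a1 was 0.39% in animal 1 and 1.58% in animal 2, so the level of the gene rests on the spliced form. The direction was common in this class of transcripts: of 2853 retained-intron transcripts, 23.3% passed the same rule as higher in animal 2, their median log2 ratio was -0.66 beside -0.03 over all transcripts, and they took 1.75% of the counts in animal 1 and 2.36% in animal 2.

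The retained-intron transcript of Cyp21a1 was not called, with 937 counts in animal 1 and 1334 in animal 2 and a log2 ratio of -0.59. The other transcript called was a short protein-coding one of Por (918 bases), with 116 counts in animal 1 and 13.8 in animal 2. The second transcript table gave it 507 and 338 counts, 16.1% and 12.8% of Por, so its count and its ratio differ between the quantifications.

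**Figure D4:**
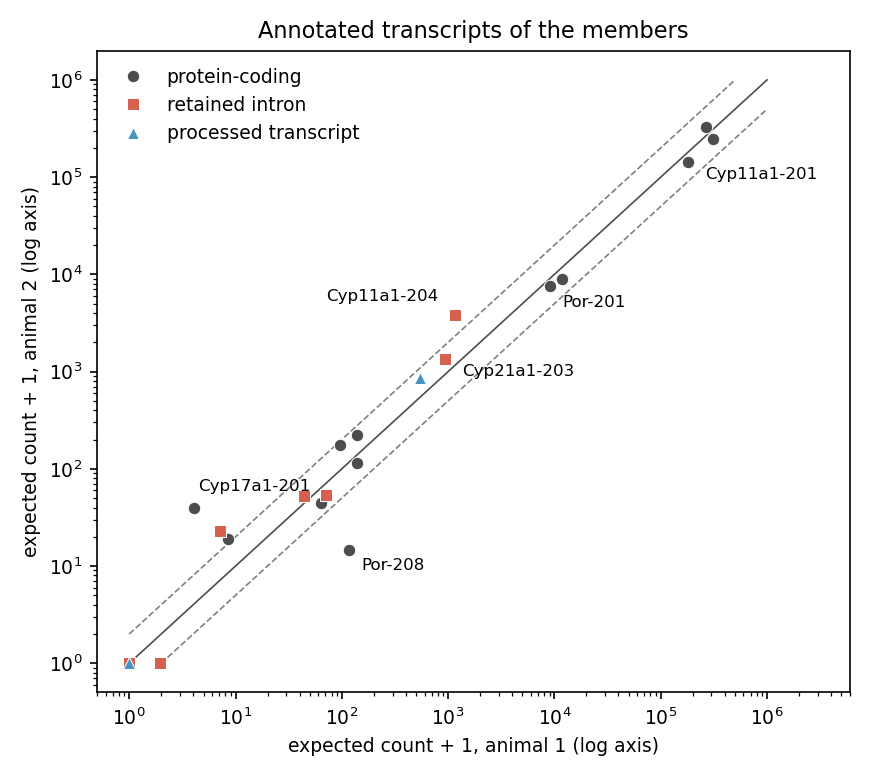
Expected counts plus 1 of the 22 annotated transcripts of the members, animal 1 on the horizontal and animal 2 on the vertical log axis, 1 point per transcript, by annotated class. The solid line marks equal counts and the dashed lines 2-fold before scaling; the retained-intron transcript of Cyp11a1 lies above them with 1171 and 3807 counts, as do some transcripts with few counts, and the short Por transcript below with 116 and 13.8.

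Copies of Cyp11b1 and Cyp21a1 share identical stretches of 100 bases and more. Of the 1595 words of 31 bases in Cyp11b2, 404 (25.3%) also occur in Cyp11b1, and of its 1526 words of 100 bases, 171 (11.2%). In the Cyp11b2 transcript, shared words of 100 bases cover 369 of 1625 bases in 2 runs, the longer of 244 bases. Cyp11b1 has 1631 bases after its last codon, where no word is shared with Cyp11b2, while Cyp11b2 has 32 bases there. Counts from the shared runs had to be divided by the programs, and Cyp11b2, the lower of the pair, has the larger share of such sequence.

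The pseudogene Cyp21a2-ps (minus strand of chromosome 17, 34719813 to 34722252) was listed at 160 TPM in animal 1 and 193 in animal 2, on 7999 and 8811 expected counts. This is 2.91% of the joint counts of Cyp21a1 and the pseudogene in animal 1 and 2.58% in animal 2, or 4.30% and 3.81% of their joint TPM. The second transcript table put the pseudogene at 2.93% of the joint counts in animal 1 and 2.66% in animal 2. Of its 1353 words of 31 bases, 729 (53.9%) occur in Cyp21a1, and 115 of 1284 words of 100 bases (8.96%). The level of the pseudogene is therefore uncertain, and how many of its reads were assigned to Cyp21a1 was not tested.

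**Figure D5:**
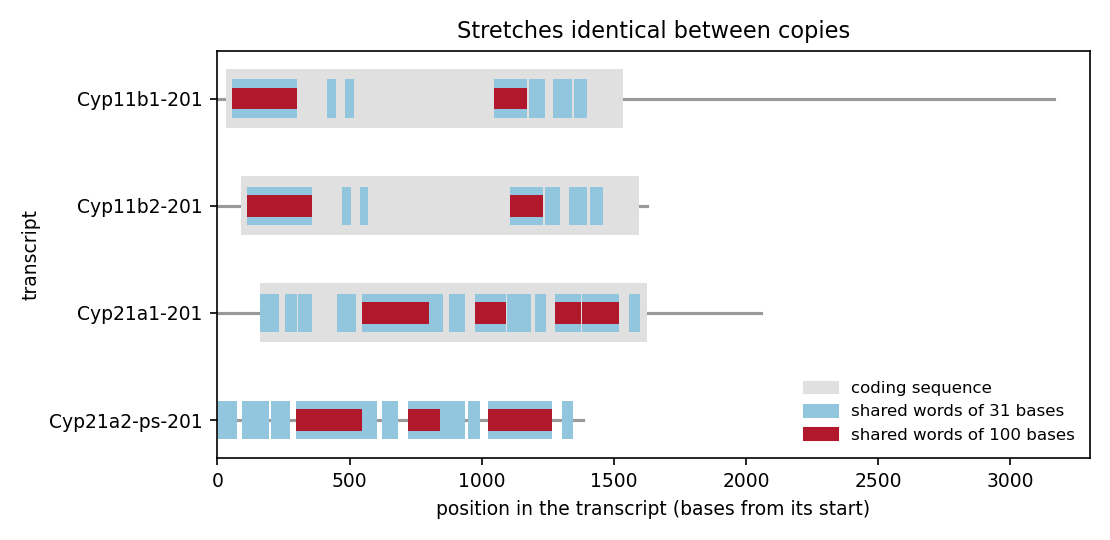
Position in each transcript, in bases from its start, of stretches identical between Cyp11b1 and Cyp11b2 and between Cyp21a1 and Cyp21a2-ps, with words of 31 bases in blue, of 100 bases in red and the coding sequence in grey. Shared words of 100 bases cover 22.7% of the Cyp11b2 transcript and 44.1% of the pseudogene's, and the end of the Cyp11b1 transcript after its coding sequence holds none.

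Genes that overlap a member had few counts. Gml2, on the strand opposite to Cyp11b1, had 0 counts in both animals in the first tables, and Tnxa, opposite to Cyp21a1, had 35.4 counts in animal 1 and 46.4 in animal 2. Gm17322, on the same strand as Cyp11a1 and overlapping 1041 bases at its upstream end, had 249 and 104 counts. Gm43091 and Gm16061, opposite to Por, had 0 and 0 counts and 3.00 and 3.89 counts. These are small beside the counts of their partners, and the libraries keep the strand per the labels.

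The second transcript table, made directly from the reads, gave higher TPM for every member. TPM is a share of a fixed total, and of this total nuclear protein-coding genes took 29.4% in animal 1 and 31.01% in animal 2 in the first tables, and 60.4% and 59.8% in the second. Of the 5 members at 1 TPM or more, 1 was at least 2-fold apart between the tables, Cyp11b2, beside 23.9% of 14977 genes. Its log2 ratio of the first over the second table was -1.23, beside a median of -0.77 over protein-coding genes. After both were rescaled to nuclear protein-coding genes, the ratios ran from -0.25 for Cyp11b2 to 0.29 for Cyp11b1, beside a median of 0.09.

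The sister genes Cyp11b1 and Cyp11b2 thus shifted by different amounts between the tables. The ratio of 13.1-fold in animal 1 and 13.8-fold in animal 2 in the first tables stood at 8.92-fold and 9.62-fold in the second. The second table assigned Cyp11b2 1.37 times the counts of the first tables in animal 1 and 1.36 times in animal 2, and Cyp11b1 1.02 and 1.03 times. The transcripts are 3165 and 1625 bases long. Without any correction for length, the count ratio in the first tables was 26.3 in animal 1 and 27.7 in animal 2. In the second table it was 19.5 in animal 1 and 21.001 in animal 2. The ratio of effective lengths, by which counts are divided for TPM, was 2.01 in both animals in the first tables. In the second table it was 2.19 in animal 1 and 2.18 in animal 2. Between the tables the count ratio thus changed by the larger factor and the length ratio by the smaller. The lowest ratio of Cyp11b1 over Cyp11b2, by count or TPM, was 8.92-fold, and the spread between the animals was smaller than that between the quantifications.

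Promoter windows from RefSeq (GRCm38.p6) matched 2 of the 6 members, Cyp11a1 with 2 windows and Por with 1. On either strand, AAGGTCA and AAGGCCA, half-sites of the Nr5a1 type, were in 0 of these 3 windows, as against 4.72% and 6.20% of all 32851 windows. The letters TGACG, the half-site of the cyclic AMP response element, were in 1 window, of Cyp11a1, and in 20.8% of all windows, and TATAAA was in 0 of 3 and in 13.6% of all. These matches are descriptions of letters in the windows and no evidence on any factor.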

How the data were processed

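Gene tables and transcript tables of the 2 libraries were used as deposited. The members and lists were chosen with earlier results of these data known. The first tables hold expected counts, TPM, a percent of each transcript within its gene and, as a non-negative signal, the lower and upper bounds of a deposited interval of TPM, per the file headers. Their columns are those RSEM writes. The second transcript table holds the authors' deposited estimated counts and TPM in columns that kallisto writes. The deposited descriptions name mm10, GENCODE M21, a transcriptome alignment for the first and a pair of read files for the second; which programs and versions made them was not given in the sources used here. Deposited TPM bounds surround a posterior mean (2294 and 1996 TPM for Cyp11a1), not the printed TPM, and were used only to ask whether the animals overlap. F1 reads were assigned to the C57BL/6J-based reference, and the effect on the members was not tested.

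The total of the expected counts was 35769717 in animal 1 and 35135703 in animal 2, with 34601631 and 34894349 estimated counts by the second quantification. Spike-ins (0.886% and 0.730% of counts) and 26248 entries named by numbers stayed out of results. The limit behind a count of 0 is 3 counts, 0.0839 and 0.0854 as CPM. Rounded expected counts were scaled by the TMM method of edgeR 4.0.16 under R 4.3.3, with 0.5 added; DESeq2 1.42.0 gave alternative size factors. Gene identifiers, symbols and positions come from GENCODE M21. Shared words, alignments and printed sequences were computed with Biopython 1.88 from its transcripts, on the strand of the gene. The scaling was also run on simulated counts. These have no TPM intervals, so the full call rule could not be tested on them, and no result rests on them. With 1 library per animal an exact sign-flip test cannot go below p = 0.5, so no test was run. The genes named are the members, the listed pathway genes where a result turns on them, markers, overlapping genes and copies, the nearest gene by level and the 3 highest other Cyp genes. The alternatives were the second table, other scalings, TPM rescaled to nuclear protein-coding genes, posterior mean TPM, no length correction, other thresholds and each library left out.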

Additional observations from a re-analysis of the deposited data

How the results depend on the processing

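Over 34 results and 154 alternatives, 105 values stayed within the spread of the result or 1.5 times its count, 49 moved and 0 were classed as reversed. Values classed as moved include changes of sign and changes in the members called. With 2 animals, a value with either library left out always lies within the SD of the result. Those alternatives were thus bound to stay, and their part of the 105 says nothing about stability. The summed TPM of the P450 members was 16100 in the second transcript table and 29942 after rescaling to nuclear protein-coding genes. The log2 ratio of Cyp11b1 over Cyp11b2 was 3.21 and that of Cyp11a1 over Cyp11b1 was 0.021 in the second table, the latter with the opposite sign. Without length correction these ratios were 4.75 and -0.77. Cyp21a1 over Cyp11b1 was then 0.10, with opposite signs in the animals (-0.23 in animal 1 and 0.42 in animal 2), while by TPM it was positive in both. Mitochondrial over microsomal P450s was then 0.60 (positive in both animals, against 0.20 with opposite signs in the animals). Mitochondrial P450s were then 4.59 over Fdx1 and 4.14 over Fdxr, and the members' share of all P450 expression was 96.3%. With no minimum count 1 member, Cyp17a1, was at least 2-fold apart between the animals, and after rescaling 0 members were 2-fold apart between the tables. The log2 ratio of the retained-intron Cyp11a1 transcript between the animals, with alternatives chosen after seeing the data, ran from -2.005 to -1.76 against -1.78. Leaving out either library gives the value of the other. No paired analysis was possible because there is 1 group. Depth limits Cyp17a1 alone among the members. The causes of these shifts were not tested.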
